A study of Mus musculus with 2 samples.

Results

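Klf2, Klf4 and Klf5 are 3 of the 32285 genes in the deposited gene tables, chosen by name and matched by symbol in both libraries. Klf2 (ENSMUSG00000055148) lies on chromosome 8 (72319033 to 72321656, plus strand), Klf4 (ENSMUSG00000003032) on chromosome 4 (55527143 to 55532466, minus strand) and Klf5 (ENSMUSG00000005148) on chromosome 14 (99298691 to 99315036, plus strand) of the mm10 build in GENCODE release M21. The R1 line of embryonic stem cells, from mouse, was kept for 72 hours in serum-free N2B27 medium and profiled as single cells, with 1 library for each of 2 culture conditions. The LB culture received the cytokine LIF and the growth factor BMP4 on gelatin. The LBPXRS culture received both of these on fibronectin, together with the MEK inhibitor PD0325901, the tankyrase inhibitor Xav939, the activin and NODAL receptor inhibitor SB431542 and a compound labelled Resorcyclic lactone. The added compounds and the change of substrate cannot be told apart, and neither can be told apart from a difference between cultures, since no condition was repeated.

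Klf2, Klf4 and Klf5 encode zinc-finger transcription factors of the Krüppel-like family, which bind GC-rich and CACCC-type DNA through a conserved group of zinc fingers at the carboxyl end. In mouse embryonic stem cells they act in the naive pluripotency network beside Nanog, Esrrb and Tfcp2l1, and they can partly replace one another. LIF activates STAT3, which is known to induce Klf4, while FGF signalling through MEK and ERK is known to promote loss of the naive state and to destabilise KLF proteins, a step that RNA counts do not show. Klf4 is one of the classical reprogramming factors, and Klf5 is also known for its role in the trophectoderm, the outer layer of the blastocyst.

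Upstream sequences of Klf2 and Klf4 are shown as the letters next to the start of these genes. Each is the stretch from 250 to 30 bases before the RefSeq start (221 bases, GRCm38.p6, written 5′ to 3′ on the strand of the gene), and 2 of the 3 genes were matched in the RefSeq promoter table. Capitals mark matches on either strand to GGGCGG (the GC box, a type of site that SP and KLF proteins bind) and, in Klf2, to the core of the sites that MEF2 proteins bind (CTA and TAG with 4 bases of any kind between them).
Klf2, chr8:72318812-72319032, plus strand: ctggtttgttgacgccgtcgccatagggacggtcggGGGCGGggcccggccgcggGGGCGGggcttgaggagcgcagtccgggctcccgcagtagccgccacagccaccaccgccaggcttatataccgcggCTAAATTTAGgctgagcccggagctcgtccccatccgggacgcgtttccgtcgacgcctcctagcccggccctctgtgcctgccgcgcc
Klf4, chr4:55532505-55532725, minus strand: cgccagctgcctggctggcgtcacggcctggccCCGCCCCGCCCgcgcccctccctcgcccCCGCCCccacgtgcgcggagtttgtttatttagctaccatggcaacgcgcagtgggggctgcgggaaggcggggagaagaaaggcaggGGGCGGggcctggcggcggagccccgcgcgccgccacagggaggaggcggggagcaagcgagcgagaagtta
The Klf2 stretch held 2 GC boxes and the Klf4 stretch 4, of which a pair overlap by 1 base. At least 1 GC box was present in 28.7% of the 32851 promoter stretches of this length in the table, and 3 or more in 6.00%. The MEF2-type letters were present once in Klf2 and in 2.86% of all stretches. Neither stretch held TTCNNNGAA, the core of a STAT site, which 6.30% of all stretches held. Binding was not measured in these samples, so the matches describe letters only.

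After cells with few genes or many mitochondrial UMIs were left out, LB held 1783 cells with a median of 25418 UMIs (unique molecular identifiers, each standing for 1 captured RNA molecule) and LBPXRS held 2705 cells with a median of 19058. Both libraries expressed markers of embryonic stem cells (Pou5f1, Sox2, Nanog, Zfp42, Esrrb and Tfcp2l1), which summed to 1362 UMIs in each 1000000 UMIs of the library (CPM) in LB and 2078 CPM in LBPXRS. LB also held cells with markers of primitive streak (291.9 CPM against 2.95 CPM in LBPXRS, 6 genes summed) and of extraembryonic mesoderm (116.7 against 1.81 CPM, 4 genes). The 5 fibroblast genes summed to 14.1 CPM in LB and 4.51 CPM in LBPXRS, with Col1a1 at 355 UMIs, Thy1 at 239, Col1a2 at 46, and Dcn and Postn at 1 each in LB. The libraries shared 8 cell barcodes among the kept cells. Over 12618 genes the log2 ratios of LBPXRS to LB had a median of -0.14, and among genes with a mean of at least 20 CPM it was -0.60 on chromosome 8, -0.12 on chromosome 4 and -0.10 on chromosome 14. All intervals below cover counting error at 95% and say nothing of the spread between cultures.

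Klf4 was the member that differed most between the libraries. Its LB level was 38.1 CPM (Poisson interval 36.3 to 39.9) and its LBPXRS level 212 CPM (208 to 216), 5.57-fold higher (counting interval 5.29 to 5.86), a log2 ratio of 2.45. For Klf5 the LB level was 129 CPM (126 to 132) and the LBPXRS level 181 CPM (178 to 185), a log2 ratio of 0.49. For Klf2 the LB level was 284 CPM (279 to 289) and the LBPXRS level 337 CPM (332 to 342), a log2 ratio of 0.24. The levels of all 3 were thus higher in LBPXRS beyond counting error, and 1 of 3, Klf4, was at least 2-fold higher; of all 7661 genes with at least 10 CPM in either library, 7.98% were at least 2-fold and 2.04% at least 4-fold higher, and 10.4% were at least 2-fold and 2.88% at least 4-fold lower. The balance of 2-fold calls depended on scaling, with 611 genes higher and 794 lower here, 781 and 596 with TMM, 814 and 563 with DESeq2 size factors, and 592 and 1044 with totals that leave out chromosomes 8, 11 and Y. The Klf2 ratio was positive although the genes of its chromosome had a negative median.

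LB is a mixture of cells, so the same levels were read in the LB cells without any UMI of the streak, extraembryonic mesoderm and trophoblast marker lists once every cell had been reduced to a random 5000 of its UMIs (thinned). These marker-free cells were 868 of 1733 (50.1%). In them Klf2 stood at 457 CPM (448 to 466), above its level in LBPXRS, and the log2 ratio of LBPXRS to these cells was -0.44, the opposite sign to that over all LB cells. Klf4 stood at 61.4 CPM (58.2 to 64.6), with a log2 ratio of 1.77, still above 2-fold; of 7357 genes in this comparison LBPXRS had 8.18% higher by 2-fold or more and 7.05% lower by as much. Klf5 stood at 158 CPM (153 to 163), with a ratio of 0.20. Against these cells the order of the ratios was the same, with Klf4 highest and Klf2 lowest, and the median of chromosome 8 genes was -0.51, close to the Klf2 value. The part of the chromosome in the Klf2 ratio was not tested.

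Over all cells, Klf2 was distributed differently in the libraries even though its mean level was similar. At 5000 UMIs per cell the share of cells with Klf2 was 48.6% in LB (exact 95% binomial interval 46.2 to 51.0) and 74.2% in LBPXRS (72.4 to 75.8). With all UMIs it was 62.3% and 95.5%. In the marker-free LB cells it was 75% (72.0 to 77.8) at 5000 UMIs, within counting error of LBPXRS, whereas Klf4 was found in 22.4% of them (19.6 to 25.3) and Klf5 in 49.1% (45.7 to 52.5). The LB cells with Klf2 held more of it, with a mean of 2.93 UMIs per positive cell against 2.29 in LBPXRS. Thus 23.8% of LB cells had 3 or more Klf2 UMIs and 51.4% had none, whereas a Poisson distribution with the same mean would leave 24.0% with none. In LBPXRS 25.8% had none, against 18.2% for a Poisson distribution. The variance of Klf2 divided by its mean, 1 for pure counting noise, was 2.85 in LB and 1.57 in LBPXRS, where the median over genes with a mean of 0.2 to 2 UMIs was 1.08 (2707 genes) and 1.06 (2462 genes). Of these genes 1.11% in LB and 2.32% in LBPXRS had a higher value than Klf2.

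The share of cells with Klf4 and its amount per positive cell were both higher in LBPXRS. The share with Klf4 was 14.2% in LB (12.6 to 15.9) and 58.5% in LBPXRS (56.5 to 60.3), and with all UMIs 36.3% and 87.1%. Positive cells held 1.30 UMIs on average in LB and 1.86 in LBPXRS, and 0.923% of LB cells against 12.2% of LBPXRS cells held 3 or more. A Poisson distribution with the same means would leave 83.2% and 33.7% of cells without Klf4, against 85.8% and 41.5% measured. The share with Klf5 was 40.3% in LB (38.0 to 42.7) and 54.5% in LBPXRS (52.6 to 56.4), and with all UMIs 77.5% and 87.9%, with nearly the same mean per positive cell (1.52 and 1.63 UMIs). Klf5 had the smallest variance relative to its mean of the 3 genes in each library, at 1.42 in LB and 1.26 in LBPXRS. The Klf4 values were 1.44 and 1.53. In LB these genes were thus close, at unlike means of 0.184 UMIs per cell for Klf4 and 0.615 for Klf5.

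**Figure D1:**
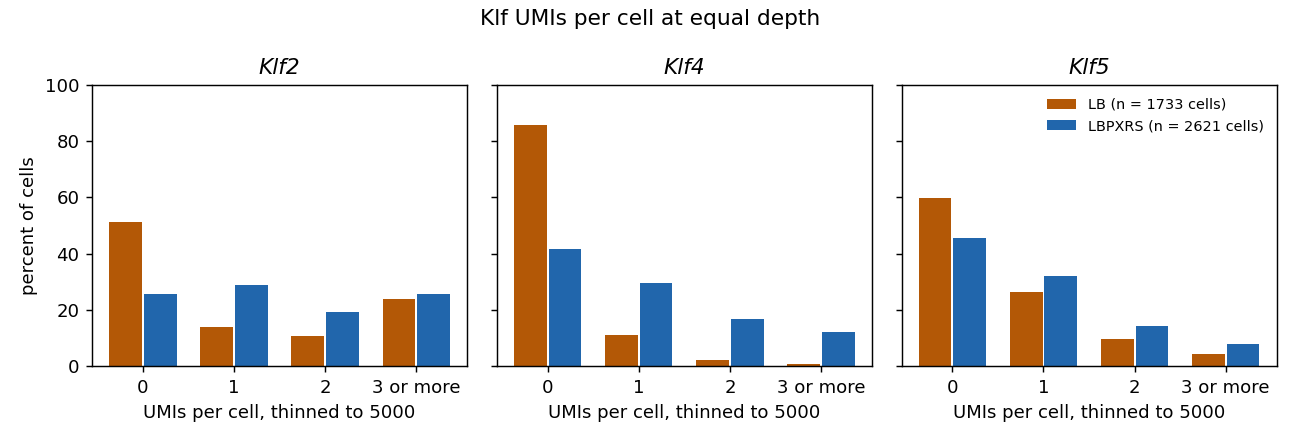
Percent of cells with 0, 1, 2 or at least 3 UMIs of Klf2, Klf4 and Klf5 after thinning to 5000 UMIs per cell, in LB (1733 cells, brown) and LBPXRS (2621 cells, blue). For Klf2 the LB bars are high at both ends, at 51.4% with none and 23.8% with at least 3 UMIs; for Klf4 85.8% of LB cells have none, against 41.5% in LBPXRS.

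Clusters were formed within each library without the 3 genes, so that the genes did not define them. In LB the Klf2 level spanned a 74.0-fold range over 7 clusters, Klf4 a 14.4-fold range and Klf5 a 4.04-fold range. The Klf5 range depended on the clustering and was 9.87-fold with finer clusters (Leiden resolution 1). Clusters 1, 5 and 6 (569, 191 and 61 cells) had the highest summed levels of the embryonic stem markers, at 2237, 1713 and 1690 CPM, and were the clusters with high Klf2, at 536 CPM (524 to 547), 589 CPM (568 to 612) and 578 CPM (525 to 636). The Klf4 levels of the same clusters were 73.8 CPM (69.7 to 78.1), 70.9 CPM (63.5 to 78.9) and 55.2 CPM (39.6 to 74.8), whose intervals overlap. Their leading genes included Zfp42 in cluster 1, Calb2 in cluster 5 and Slc7a3, Pmel and Spp1 in cluster 6, where the median depth was 10944 UMIs and the median mitochondrial share 6.74%.

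The other LB clusters had lower Klf2 and Klf4 but differed in Klf5. Cluster 3 (268 cells, led by Pim2, Fgf5, Tmem54 and Dnmt3b, genes that include formative markers) had Klf2 at 52.4 CPM (47.3 to 57.9), Klf4 at 5.99 CPM (4.35 to 8.05) and Klf5 at 93.4 CPM (86.6 to 101). Cluster 4 (263 cells, with T among its leading genes and the streak list at 1146 CPM) had Klf2 at 100.4 CPM (92.5 to 108.9), Klf4 at 5.13 CPM (3.46 to 7.33) and Klf5 at 108.6 CPM (100.4 to 117.4). The Klf4 intervals of these clusters overlap. The Klf2 level of cluster 4 was an average over unlike cells: with finer clusters, 90 of its cells fell in a cluster at 245 CPM (223 to 268) and 173 in one at 29.2 CPM (24.1 to 35.1), below the level of cluster 3. Cluster 2 (354 cells, led by Prdm6, Foxf1, Pitx1, Cyp26a1 and Hoxb6, with the extraembryonic mesoderm list at 496 CPM) had Klf2 at 10.9 CPM (8.84 to 13.4), Klf4 at 7.91 CPM (6.15 to 10.0) and Klf5 at 47.5 CPM (43.0 to 52.3), the lowest Klf5 of the 7 clusters.

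Cluster 7 (59 cells, with Cxcl10, 3830417A13Rik, Esx1 and Ankrd1 among its leading genes) had low Klf2 and Klf4 but not low Klf5. Its Klf2 level was 7.97 CPM (4.55 to 12.9), which overlaps that of cluster 2, with Klf4 at 12.9 CPM (8.46 to 19.0). Its Klf5 level was 192 CPM (173 to 212), which overlaps the intervals of clusters 1, 5 and 6. At 5000 UMIs, 29 of 57 cells of this cluster had Klf5 (50.9%, 37.3 to 64.4) and 6 had Klf2 (10.5%, 3.96 to 21.5). Its summed marker levels covered several lineages, with the trophoblast list at 165 CPM, extraembryonic mesoderm at 281 CPM, streak at 206 CPM and formative genes at 249 CPM.

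Free RNA in the droplets can give UMIs of a gene in cells that do not express it. The lowest share of cells with Klf2 in an LB cluster, 4.69% (2.71 to 7.51) in cluster 2 at a median depth of 23916 UMIs, is therefore an upper estimate of that background for Klf2, and 2.32% (0.855 to 4.97) in cluster 3 (27353.5 UMIs) is one for Klf4. If every Klf2 UMI of cluster 2 came from RNA shared by all LB cells, the same source would give 1.47 CPM of Klf4 and 4.96 CPM of Klf5 there, against 7.91 and 47.5 CPM measured. In cluster 7 it would give 3.61 CPM of Klf5, against 192 CPM.

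In LBPXRS the ranges between clusters were narrower than in LB, at 1.80-fold for Klf4 and 1.48-fold for Klf5, although finer clusters (Leiden resolution 1) widened that of Klf4 to 2.79-fold. Over the 5 clusters of usual depth, Klf2 ranged from 318 CPM (309 to 327) in cluster 2 to 418 CPM (401 to 435) in cluster 4, which was led by Hspa5, Pdia6, Tuba3a and the mitotic genes Ccnb1 and Plk1. Klf4 ranged from 142 CPM (135 to 148) in cluster 2, led by Gata2 and Dusp4, to 255 CPM (247 to 264) in cluster 1, led by the stress genes Chac1 and Trib3. Klf5 had its lowest and highest levels in the same clusters 2 and 1, at 147 CPM (141 to 154) and 218 CPM (210.4 to 225.5). A sixth cluster of 81 cells stood apart, with a median of 3382 UMIs, 0.0459% mitochondrial UMIs and Klf2 at 733 CPM (651 to 824); with it the Klf2 range was 2.31-fold and without it 1.31-fold.

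The cluster levels of the libraries were then set side by side. The highest Klf4 level of an LB cluster, 73.8 CPM, lay below the lowest of an LBPXRS cluster, 142 CPM, and with finer clusters (Leiden resolution 1) the values were 102.2 CPM (90.3 to 115.1) and 105.4 CPM (98.1 to 113.1), which do not differ beyond counting error. For Klf2 the LB clusters 1, 5 and 6, at 536 to 589 CPM, lay above the 5 LBPXRS clusters of usual depth and below cluster 6, and the other LB clusters lay below all of them. For Klf5 the ranges overlapped, with 47.5 to 192 CPM in LB and 147 to 218 CPM in LBPXRS.

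**Figure D2:**
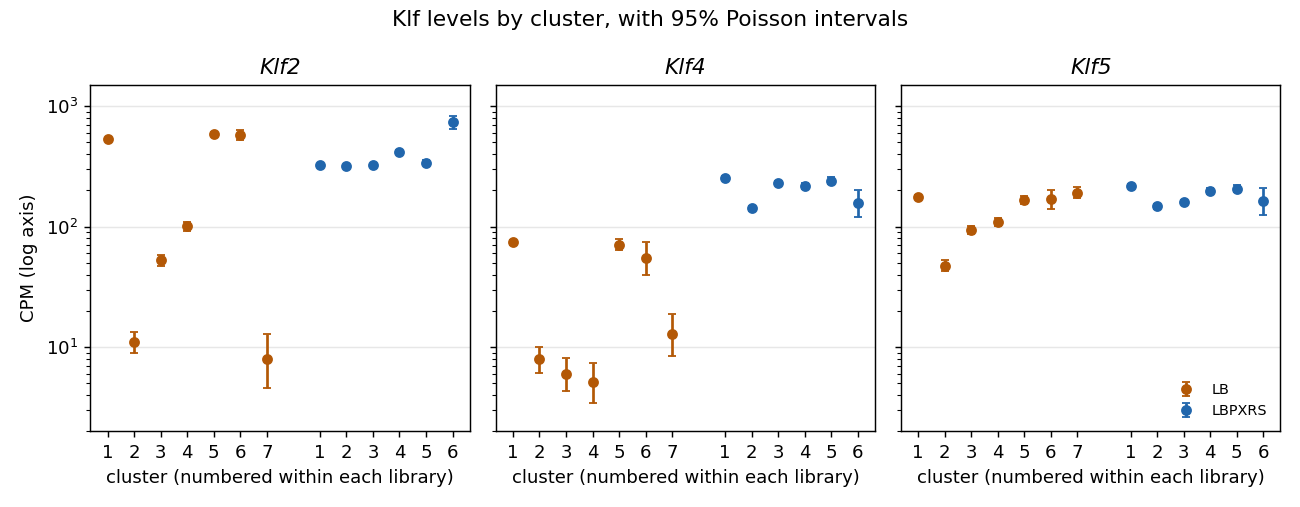
CPM of Klf2, Klf4 and Klf5 in each cluster of at least 50 cells (log axis), numbered within each library, for LB (7 clusters, brown) and LBPXRS (6 clusters, blue); bars are 95% Poisson intervals. LB cluster 7 has low Klf2 (7.97 CPM, an interval that overlaps cluster 2) beside Klf5 at 192 CPM, and every LB cluster lies below every LBPXRS cluster for Klf4.

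LB cells with streak, extraembryonic mesoderm or trophoblast markers had Klf2 and Klf4 less often than the other LB cells, and Klf5 more nearly as often. Among 622 cells with a UMI of a streak marker (T, Mixl1, Eomes, Mesp1, Fgf8 or Evx1), Klf2 was found in 20.1% (17.0 to 23.5), against 64.5% (61.6 to 67.4) of the 1111 others. The shares for Klf4 were 5.47% (3.81 to 7.56) and 19.1% (16.8 to 21.5). For Klf5 they were 31.7% (28 to 35.5) and 45.2% (42.2 to 48.2). The ratio of the shares was thus below 0.5 for Klf2 and Klf4 and above it for Klf5; 3.34% of 6922 genes found in at least 5% of LB cells, the streak markers left out, had a share at least 2-fold lower in the streak-positive cells.

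For the extraembryonic mesoderm markers (Hand1, Foxf1, Msx2 and Tbx20) the ratio of shares was again below 0.5 for Klf2 and Klf4 and above it for Klf5. Klf2 was found in 10.5% (7.38 to 14.4) of 324 positive cells and 57.3% (54.7 to 59.9) of negative cells, Klf4 in 4.94% (2.85 to 7.90) and 16.3% (14.4 to 18.4), and Klf5 in 25% (20.4 to 30.1) and 43.9% (41.2 to 46.5). Here 4.84% of genes were at least 2-fold lower, among them Klf2 and Klf4. For the trophoblast list, Klf2 was found in 24.8% (20.2 to 29.8) of 327 positive cells against 54.1% (51.5 to 56.8), Klf4 in 7.65% (5.01 to 11.1) against 15.7% (13.9 to 17.7), and Klf5 in 35.8% (30.6 to 41.2) against 41.4% (38.8 to 44.0), with 2.44% of genes at least 2-fold lower. Of the 327 cells 199 had 1 trophoblast UMI, and with at least 2 required the ratio of shares was 0.181 in place of 0.458 for Klf2 and 0.155 in place of 0.486 for Klf4. At 10000 UMIs per cell the ratio was 0.557 for Klf2, no longer 2-fold lower, and 0.484 for Klf4. That list was not of 1 kind in these cells: 14.8% (10.2 to 20.4) of Cdx2-positive cells had Klf2, while 56.4% (42.3 to 69.7) of the 55 cells with the keratin Krt7 had it, against 48.3% (45.9 to 50.8) of cells without Krt7. Elf5, a defining trophoblast gene, had no UMI in LB.

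The other marker lists did not all give the same direction. Of 154 LB cells with a germ cell marker, 71.4% (63.6 to 78.4) had Klf2, against 46.4% (43.9 to 48.9) of the others, while the intervals overlapped for Klf4 (17.5% and 13.9%) and Klf5 (46.1% and 39.8%). Of 105 cells with a primitive endoderm marker, 11.4% (6.05 to 19.1) had Klf2 and 18.1% (11.3 to 26.8) had Klf5, against 51.0% and 41.8% of the others. The Klf5 ratio of shares was 0.433 (0.270 to 0.642), and the share of all genes as low was not computed for this list. The list was highest in LB cluster 2, at 47.2 CPM (next 12.0 CPM in cluster 4), where the extraembryonic mesoderm list was also highest. Of its genes, Sox17, Foxa2 and Sox7 had 36, 23 and 4 UMIs in LB, against 170 for Gata6 and 121 for Gata4. Of 140 cells with a neural marker, 24.3% (17.4 to 32.2) had Klf2 and 33.6% (25.8 to 42.0) had Klf5, against 50.7% and 40.9%. Of 111 cells with a fibroblast marker, 34.2% (25.5 to 43.8) had Klf2 and 42.3% (33.0 to 52.1) had Klf5, against 49.6% and 40.2%.

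Single markers of the streak and mesoderm gave different values for Klf5. Of cells with T, the brachyury gene of the streak, 19.3% (15.1 to 24.0) had Klf2 and 40.1% (34.7 to 45.6) had Klf5, the latter almost the same as the 40.4% (37.8 to 43.0) of cells without T. Of cells with Mesp1, which marks nascent mesoderm, 8.76% (4.61 to 14.8) had Klf2 and 25.5% (18.5 to 33.7) had Klf5, against 52.0% and 41.6% of cells without it. Of cells with Hand1, 9.54% (6.15 to 14) had Klf2 and 26.6% (21.1 to 32.6) had Klf5. Of cells with Eomes, a factor of the streak and early endoderm, 24.2% (16.0 to 34.1) had Klf2 and 20% (12.5 to 29.5) had Klf5, against 50% and 41.5%. The ratio of shares was 0.484 (0.320 to 0.682) for Klf2 and 0.482 (0.301 to 0.710) for Klf5. The Klf5 ratio was 0.632 for Mixl1, 0.703 for Evx1 and 0.793 for Fgf8. Among the 6 streak markers T was thus the 1 with a Klf5 ratio near 1, at 0.992.

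The Klf2 share was lower in cells with 2 or more streak UMIs than in cells with 1 or none. It was 64.5% with no streak UMI (median depth 26889 UMIs), 37.1% (29.4 to 45.3) with 1 (25972 UMIs), 13.4% (9.30 to 18.5) with 2 to 4 (23771 UMIs) and 15.8% (11.5 to 21.1) with 5 or more (22506.5 UMIs). The last values do not differ beyond counting error. The Klf5 share was 32.5% (25.1 to 40.5) with 1 streak UMI, 26.8% (21.2 to 33.0) with 2 to 4 and 35.8% (29.8 to 42.3) with 5 or more, and these intervals overlap. With 2 to 4 extraembryonic mesoderm UMIs, Klf2 was found in 4.0% (1.31 to 9.09) of 125 cells, and Klf5 in 28.8% (21.1 to 37.6). With 5 or more the shares were 7.35% (2.43 to 16.3) and 19.1% (10.6 to 30.5) of 68 cells, each overlapping the value before it.

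**Figure D3:**
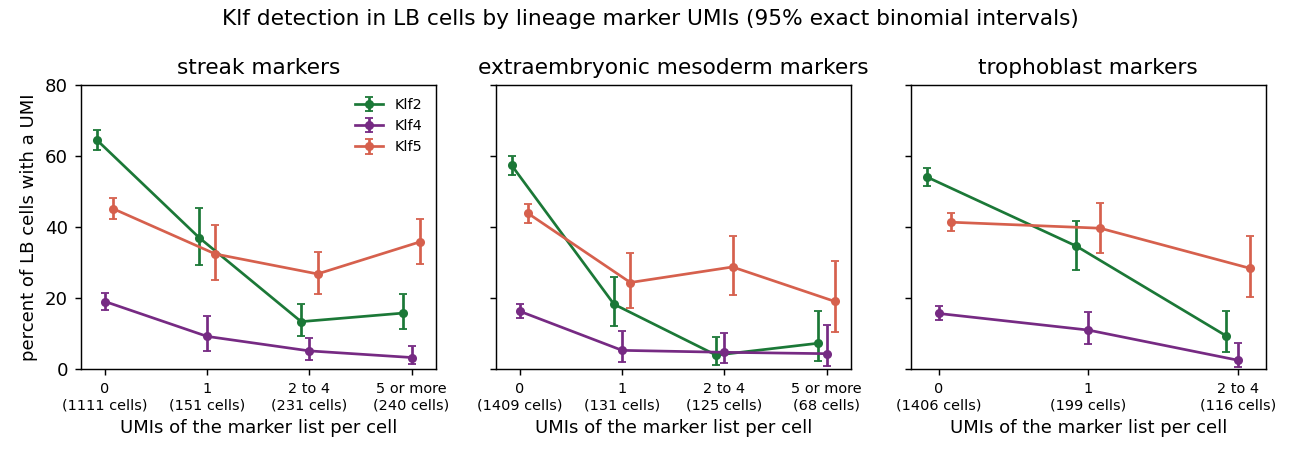
Percent of LB cells with a UMI of Klf2 (green), Klf4 (purple) or Klf5 (red) by the number of UMIs of the streak, extraembryonic mesoderm and trophoblast marker lists in the same cell, at 5000 UMIs per cell; bars are exact 95% binomial intervals, and groups under 20 cells are left out. Klf2 is found in 64.5% of cells with 0 and 13.4% with 2 to 4 streak UMIs, and Klf5 in 45.2% and 26.8%.

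Formative markers (Dnmt3b, Fgf5, Pou3f1, Sox3 and Otx2), which appear as cells leave the naive state, were related to the members less strongly. Of 752 formative-positive LB cells, 43.0% (39.4 to 46.6) had Klf2, 13.2% (10.8 to 15.8) had Klf4 and 37.6% (34.2 to 41.2) had Klf5, against 52.9%, 15% and 42.4% of the others. The markers differed among themselves: Klf2 was found in 19.4% (13.3 to 26.9) of cells with Pou3f1 and in 55.8% (49.7 to 61.8) of cells with Otx2. In LBPXRS, 501 cells had a formative UMI, 423 of them Otx2, and Klf4 was found in 68.8% (64.1 to 73.2) of Otx2-positive cells against 56.5% (54.4 to 58.5) of the others. The 350 LBPXRS cells with a trophoblast-list UMI had Klf2 in 70.9% (65.8 to 75.6), Klf4 in 57.7% (52.3 to 62.9) and Klf5 in 54.0% (48.6 to 59.3), each within counting error of the remaining LBPXRS cells. Fewer than 50 LBPXRS cells were positive for the streak or extraembryonic mesoderm lists, so these were not described there.

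Pairs of the 3 genes were found together in LB cells more often than their single shares would give. Klf4 was found in 23.6% of LB cells with Klf2 and in 5.27% of those without it, and in LBPXRS in 59.7% and 54.9%. Both genes were present in 11.5% of LB cells (10.0 to 13.1), against 6.90% from the product of the shares, a ratio of 1.66. The ratio was 1.30 for Klf2 with Klf5 (25.4% of cells, 23.4 to 27.5, against 19.6%) and 1.39 for Klf4 with Klf5 (7.96%, 6.73 to 9.34, against 5.73%). Among all 6925 genes found in at least 5% of LB cells, 7.41% had a ratio of at least 1.2 with Klf2, 12.0% with Klf4 and 3.48% with Klf5. In LBPXRS the ratios were 1.02, 1.02 and 1.04, and the product of the shares lay inside the interval of the measured share for each pair. The product comes from the same cells as the measured share, so this does not show that the genes were independent. High shares limit this ratio, which cannot exceed 1 divided by the larger share, so conditional shares are given too: in LBPXRS Klf5 was found in 56.8% of cells with Klf4 and 51.2% of those without it, and in 55.7% of cells with Klf2 and 51.0% of those without it. Pearson correlations of log counts over cells of 1 library, which share its depth and its mixture of cells, were 0.27, 0.24 and 0.14 in LB (1733 cells) and 0.067, 0.040 and 0.079 in LBPXRS (2621 cells).

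The ratio of Klf2 with Klf4 differed between marker-free and marker-positive LB cells (with a UMI of those lists), whereas the intervals of the other pairs overlapped. In the marker-free LB cells the ratios were 1.18 (1.03 to 1.35) for Klf2 with Klf4, 1.13 (1.04 to 1.22) for Klf2 with Klf5 and 1.22 (1.02 to 1.44) for Klf4 with Klf5. There Klf4 was found in 26.4% of cells with Klf2 and 10.1% of those without it, against 14.1% and 3.71% in marker-positive cells. High shares limit the first ratio more in marker-free cells, where Klf2 was found in 75%, than in marker-positive cells, with 22.1%. Within cluster 1 (565 cells), where Klf2 was found in 87.8% of cells, Klf4 in 28.8% and Klf5 in 54.3%, the ratios were 0.999, 1.04 and 1.06, with the product inside each interval. In the 865 marker-positive LB cells the ratios were 2.35 (1.56 to 3.4), 1.31 (1.05 to 1.61) and 1.34 (0.844 to 2.02), from 27, 79 and 22 cells with both genes. In LB clusters 2, 3 and 4 at most 5 cells had Klf4 with either other member, too few to read a ratio. In the 5 LBPXRS clusters with at least 200 thinned cells the ratios of the 3 pairs lay between 0.967 and 1.11, and again every product lay inside its interval. As above, this does not show independence, since the product comes from the same cells. Pearson correlations of log counts in LBPXRS cluster 2 (698 cells) were 0.142 for Klf2 with Klf4, 0.143 for Klf2 with Klf5 and 0.093 for Klf4 with Klf5. In the remaining LBPXRS clusters of this size they lay between -0.045 and 0.096.

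The number of the 3 genes found in a cell summarised this. In LB, 35.0% of cells (32.7 to 37.3) had none of them and 6.75% (5.62 to 8.04) had all 3, against 26.3% and 2.78% from the single shares. In LBPXRS, 6.14% (5.25 to 7.13) had none and 25.5% (23.9 to 27.2) had all 3, against 4.88% and 23.6%, both just outside the intervals. In the marker-free LB cells, 16.5% (14.1 to 19.1) had none and 11.9% (9.79 to 14.2) had all 3, so these cells were between the other populations. Of the 865 marker-positive LB cells, 53.5% (50.1 to 56.9) had none and 14 cells (1.62%, 0.888 to 2.70) had all 3.

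**Figure D4:**
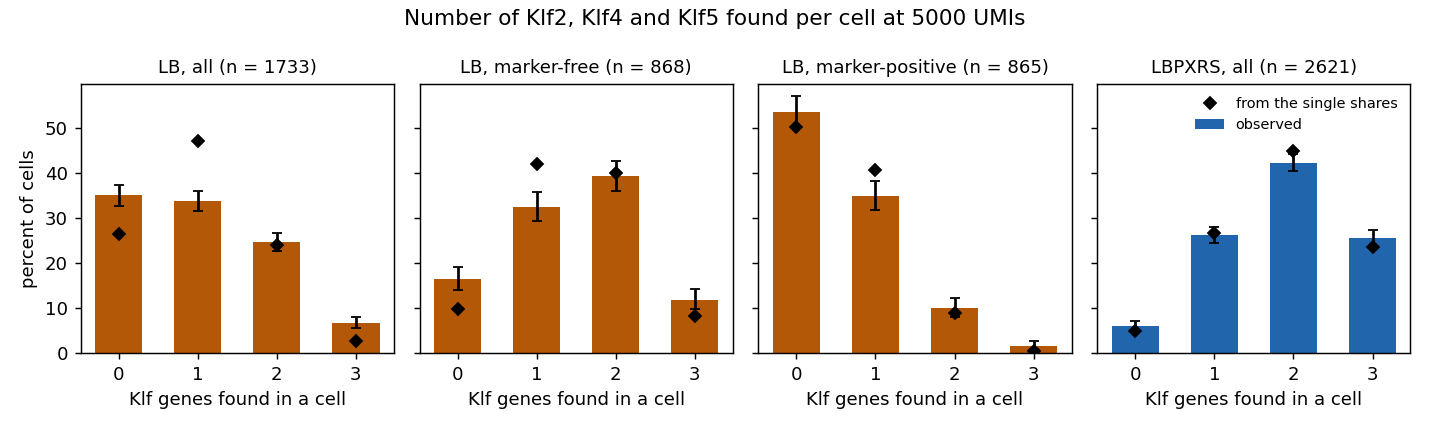
Percent of cells in which 0, 1, 2 or 3 of Klf2, Klf4 and Klf5 were found at 5000 UMIs (bars, exact 95% binomial intervals) and the percent given by the product of the single shares (diamonds), for all LB cells, LB cells without and with a UMI of the streak, extraembryonic mesoderm and trophoblast lists, and all LBPXRS cells. None of the 3 genes was found in 35.0% of LB cells, above the diamond at 26.3%, and all 3 were found in 25.5% of LBPXRS cells.

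In LB the members were also found together with other naive factors. Of 13 naive network genes present in at least 5% of LB cells, 11 had a co-detection ratio of at least 1.2 with Klf2 (median 1.69), 11 with Klf4 (median 1.68) and 10 with Klf5 (median 1.26). Of all 6925 genes 7.41%, 12.0% and 3.48% reached that ratio. Esrrb, an orphan nuclear receptor of the network, was found in 18.8% of cells with Klf2 (16.2 to 21.6) and 2.24% of cells without it (1.38 to 3.45). For Klf4 the Esrrb shares were 24.4% (19.2 to 30.3) and 7.94% (6.61 to 9.43), and for Klf5 they were 13.9% (11.4 to 16.7) and 7.83% (6.27 to 9.64). Zfp42, a marker of naive cells, was found in 81.8% (79.1 to 84.4) of cells with Klf2 and 21% (18.4 to 23.8) of cells without it. Sall4, a core factor that cells keep beyond the naive state, was among the exceptions, with ratios of 1.03, 1.06 and 1.02. Pou5f1 was another (1.13, 1.11 and 1.09), but at a share of 84.9% of LB cells it could not reach 1.2. It was found in 96.3% (94.8 to 97.5) of cells with Klf2 and 74.2% (71.2 to 77.0) of cells without it. In LBPXRS none of the 13 naive network genes found in at least 5% of cells reached a ratio of 1.2 with any member. Of 6648 genes, 0 did so with Klf2, 0.0451% with Klf4 and 0.0903% with Klf5. High shares limit the ratio here too: Zfp42 (86.3% of LBPXRS cells) and Pou5f1 (98.4%) could not reach 1.2. Some shares still differed between LBPXRS cells with and without Klf4, with intervals that did not overlap. They were 59.3% and 47.0% for Nanog, 67.0% and 54.9% for Sox2, 90.1% and 81.0% for Zfp42, and 37.9% and 31.4% for Tbx3. Tcl1, Dppa3 and Nr0b1 were found less often with Klf4, with overlapping intervals. ERK feedback genes, which are switched on by FGF signalling, had median ratios below 1 in LB, over 9 genes, of 0.816 with Klf2, 0.709 with Klf4 and 0.892 with Klf5. Etv5 (1.26, 1.29 and 1.12) and Egr1 (1.14, 1.40 and 1.02) of this list had ratios above 1 with each member.

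The rest of the KLF family was read to see whether Klf4 stood alone. Of the 14 other KLF genes, 8 reached 10 CPM in either library, of which 3 were higher in LBPXRS by at least 2-fold on the log2(CPM + 1) scale and none was lower by as much, where 7.98% of all genes were higher and 10.4% lower; the median over the 10 genes with a mean of at least 1 CPM was 0.0018, against -0.14 for all genes. Klf15, a regulator of metabolic genes, had an LB level of 10.1 CPM (9.17 to 11) and an LBPXRS level of 46.0 CPM (44.2 to 47.9). Klf3, a repressor of the family, had 81.7 and 243 CPM, and Klf9 had 94.2 and 223 CPM. Klf6, an immediate early member, was lower, with 50.5 and 24.9 CPM; its ratio of CPM was 0.493, and it missed the 2-fold call because of the 1 CPM added, at a log2 ratio of -0.99. Klf17 had 8 UMIs in LB and 4 in LBPXRS.

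Of the 9 SP genes, which share the zinc-finger type, 4 reached 10 CPM. Sp2 was higher in LBPXRS (18.7 and 43.8 CPM) and Sp5, a direct target of WNT signalling, was lower (18.2 and 0.116 CPM, 830 and 6 UMIs). Sp8, below the CPM minimum, had 243 UMIs in LB and 4 in LBPXRS. Sp1 and Sp3 had log2 ratios of -0.19 and -0.23, near the median of all genes.

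**Figure D5:**
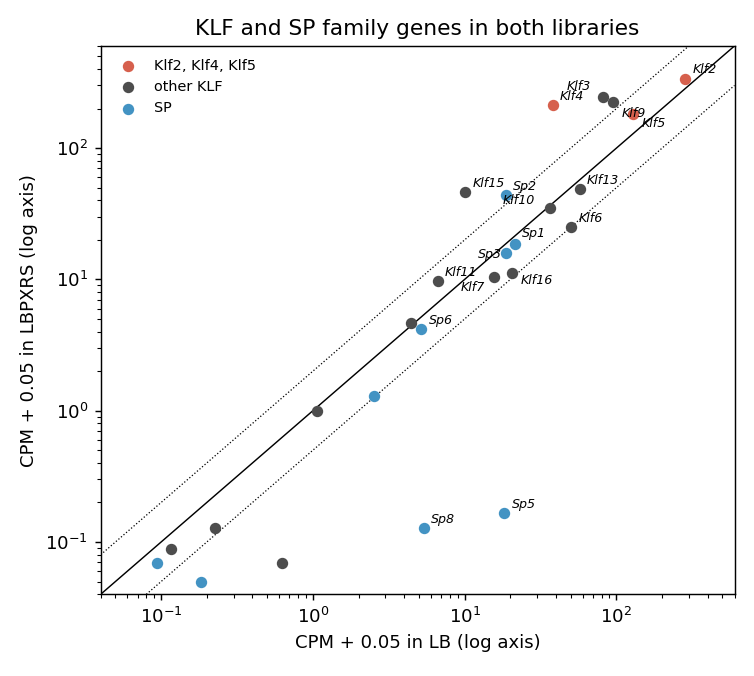
CPM of KLF and SP family genes in LB (x axis) and LBPXRS (y axis), both on log axes with 0.05 added; the solid line marks equal levels and the dotted lines 2-fold differences, and genes of at least 5 CPM in either library are named. Klf4 (38.1 and 212 CPM) and Klf15 (10.1 and 46.0 CPM) lie farthest above the line, and Sp5 and Sp8 far below it.

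Genes of the signalling pathways and of the naive network were read beside the members. Of 10 LIF and STAT3 genes, 1 was at least 2-fold higher in LBPXRS, the kinase Pim1 (55.9 and 146 CPM), and 2 were at least 2-fold lower, Junb (60.5 and 16.0 CPM) and Myc (13.2 and 0.154 CPM), with a median log2 ratio of 0.25. Beside the 7.98% and 10.4% of all genes, these counts do not set the list apart. Socs3, the feedback inhibitor that STAT3 induces, had 54.6 and 81.7 CPM, and Stat3 itself 32.9 and 29.4 CPM. Of 11 ERK feedback genes, 9 reached 10 CPM, of which 7 were at least 2-fold lower and none higher, where 10.4% of all genes were at least 2-fold lower; the median of all 11 was -1.82. Of the 15 naive network genes, 14 reached 10 CPM, with 8 at least 2-fold higher and 1, Dppa3 (126 and 38.9 CPM), at least 2-fold lower, where 7.98% of all genes were higher and 10.4% lower. Fgf4 and Tfcp2l1 had log2 ratios of 2.35 and 2.19, close to that of Klf4, and Zfp42 and Pou5f1 had 0.36 and 0.46, in the range of Klf2 and Klf5.

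Genes with the pattern most like each member were named by the Pearson correlation of log2(CPM + 1) across the clusters of a library, as a description over few points. Across the 7 LB clusters and 4821 other genes, the closest to Klf2 were Agtrap (0.982), Ephx2 (0.976) and Rps27rt (0.974), the closest to Klf4 were Mtf2 (0.971), Mdm4 (0.970) and Arid5b (0.968), and the closest to Klf5 were Atg4d (0.971), Sat1 (0.963) and Mta3 (0.962). The members themselves were less alike, with 0.771 for Klf2 and Klf4, 0.652 for Klf4 and Klf5 and 0.514 for Klf2 and Klf5. Across the 6 LBPXRS clusters, the closest to Klf2 were Adat2, Necap1 and Nipsnap3b (each 0.998). The shallow cluster 6 holds the highest Klf2 level there, and the correlations without it were not computed. The closest to Klf4 were Hnrnpab (0.995), Mrps17 (0.990) and Plekhj1 (0.986), and those named for Klf5 were Mid1ip1 (0.984) and Lyar (0.976). There the correlation of Klf4 with Klf5 was 0.801 and that of Klf2 with Klf4 was -0.44.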

How the data were processed

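Per the labels' protocols, the 3′ single-cell chemistry of 10x Genomics (version 2) was used. The authors deposited raw UMI counts per gene and barcode from Cell Ranger 4.0.0 (per the file headers) on the mm10 build (per the submitters' processing notes). The gene annotation and the settings of cell calling are not given in the sources used here. Of 32285 gene IDs, 32158 were found in GENCODE M21 and took their chromosome from it.

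Barcodes with under 1000 genes or over 10% mitochondrial UMIs were left out, which removed 225 of 2008 barcodes from LB (11.2%) and 406 of 3111 from LBPXRS (13.1%). Counts were summed over cells and scaled to 1000000 (CPM), and ratios are differences of log2(CPM + 1), LBPXRS minus LB, a scale that understates changes of low genes. Scrublet in scanpy 1.11.5 marked 12 LB cells (0.673%) and 14 LBPXRS cells (0.518%). Marked cells were kept; doublets may remain, and cells with UMIs of several lineages may be among them.

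For shares, cells were thinned to 5000 UMIs, which left out 50 LB and 84 LBPXRS cells. Intervals are exact Poisson or Clopper-Pearson. With 1 library per condition no test was possible and genes were called by size alone. Clusters came from scanpy (2000 variable genes without the members, 30 components, 15 neighbours, Leiden resolution 0.5), are called by number and carry no cell type names. The calculations were tested on simulated data. The members, gene lists and marker lists were chosen with earlier results of these data known. Genes named are the members, those lists, the leading genes of clusters and the 3 genes most like each member per library among those with at least 20 CPM. Some genes that this rule names are not reported here. Alternatives included edgeR 4.0.16 (TMM) and DESeq2 1.42.0 scaling.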

Additional observations from a re-analysis of the deposited data

How the results depend on the processing

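The log2 ratios of LBPXRS to LB depended on scaling and on which LB cells were used. With TMM scaling they were 0.40 for Klf2, 2.60 for Klf4 and 0.64 for Klf5, with DESeq2 size factors 0.42, 2.62 and 0.67, and with totals that leave out chromosomes 8, 11 and Y 0.16, 2.37 and 0.41; these settings put the median of all genes at -0.00071, 0.023 and -0.22. Against marker-free LB cells Klf2 changed sign to -0.44, while Klf4 stood at 1.77 and Klf5 at 0.20, from fewer LB cells by construction. Pseudocount, stricter or no cell filter and removal of Scrublet-marked cells left all 3 ratios within counting error, as did leaving out cells under 0.5% mitochondrial UMIs, a setting chosen after seeing the data. Thinning sets the shares. At 2500 UMIs Klf2, Klf4 and Klf5 were found in 37.8%, 8.61% and 26.0% of LB cells and 51.8%, 38.3% and 34.5% of LBPXRS cells, and at 10000 UMIs in 55.2%, 24.1% and 59.1% and in 90.1%, 77.3% and 77.2%. Over all cells, each share was higher in LBPXRS at these depths; in marker-free LB cells the Klf2 share at 5000 UMIs was 75%, against 74.2% in LBPXRS. Among marker-free LB cells the co-detection ratio was 1.18 for Klf2 with Klf4 and 1.13 for Klf2 with Klf5. With at least 2 marker UMIs required, the ratio of the Klf2 share in positive to that in negative LB cells was 0.239 for streak, 0.0959 for extraembryonic mesoderm and 0.181 for trophoblast, and the trophoblast ratio was 0.155 for Klf4 and 0.721 for Klf5. With another seed the extraembryonic mesoderm ratio was 0.255 for Klf2 and 0.734 for Klf5, against 0.183 and 0.570 in the report, and at 10000 UMIs the trophoblast ratio for Klf2 was 0.557. At Leiden resolution 1 the highest cluster CPM over the lowest was 9.87 for Klf5 in LB, and 2.79 for Klf4 and 1.86 for Klf5 in LBPXRS. Without a CPM minimum, 1117 genes were at least 2-fold higher and 1561 lower in LBPXRS, against 611 and 794. In 139 of 181 recomputed values the result stayed within its counting interval or, for counts of genes, within 1.5 times. The causes of the other shifts were not tested. No paired analysis was possible because each condition has 1 library.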
